A study of Mus musculus with 48 samples.

Results

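The 33 microglia genes described here were chosen by gene symbol, as genes that mark microglia and their states in the mouse brain, and all 33 were found among the 24444 genes of the deposited expression table. They form 4 groups by role. 12 are homeostatic genes, which mark resting microglia: Cx3cr1, P2ry12, P2ry13, Tmem119, Csf1r, Fcrls, Siglech, Gpr34, Selplg, Olfml3, Sall1 and Hpgds. 4 are complement genes, C1qa, C1qb and C1qc, which encode the chains of C1q, and Itgam, which encodes CD11b, a subunit of complement receptor 3. 9 are activation genes, with roles in phagocytosis, antigen presentation and immune receptor signaling: Trem2, Tyrobp, Cd68, Cd14, Cd74, Ctss, Fcer1g, Fcgr3 and Mpeg1. The other 8 are pan-myeloid genes, shared with other cells of the myeloid lineage: Aif1, Ptprc, Cd53, Laptm5, Ly86, Spi1, Irf8 and Inpp5d.

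The data are RNA-seq of the cortex of 48 males in 8 groups of 6, WT and Chd8 V986*/+, aged E14.5, 1 month, 6 months or 12 months. Chd8 V986*/+ mice are heterozygous for an insertion that places tandem stop codons in Chd8, which encodes a chromatin remodeler. All mice were on a C57BL/6J background with littermate controls, and the allele descends from a single founder made with CRISPR/Cas9 and backcrossed. The allele was present in every cell, so a difference between genotypes in microglia genes is not specific to a mutation within microglia. Chd8 itself was lower in all Chd8 V986*/+ mice than in all WT mice of the same age, with group means of 12.55 and 11.92 at E14.5 and 11.65 and 11.11 at 12 months.

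Microglia are the resident macrophages of the brain. They arise from yolk sac progenitors that enter the brain in the embryo, and they mature after birth, when most homeostatic genes rise in expression. C1q, the first component of the classical complement pathway, is made in the brain mainly by microglia and tags synapses and debris, which microglia engulf through receptors that include CD11b.

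Values are variance-stabilizing transformation (VST) expression values on a log2 scale, so that 1 unit is about a doubling where a gene is well expressed, and low genes close to the floor of the scale change by more than their values show. The floor, the most frequent value of the table, was 2.1433. VST values are not adjusted for gene length, so levels are compared between samples and not between genes. Differential expression was tested with limma, and genes with an adjusted p value (adjp, Benjamini-Hochberg over all genes tested) below 0.1 are called. In each of the 8 groups of mice, all 33 genes had a mean at least 0.5 above the floor, so none was lost to the filter on low values. The one value at or below the floor was that of Cd74 in Chd8 V986*/+ replicate 2 at E14.5. In bulk cortex, fewer microglia and less RNA per microglial cell cannot be told apart.

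Several libraries stood apart from their groups. Chd8 V986*/+ replicate 2 at E14.5 had the lowest mean over the 33 genes at that age, 6.16 against 6.36 to 6.69 in the other 11 embryos, together with the lowest mean of 8 border macrophage markers, 5.42 against 5.92 to 6.77, and of 8 meningeal fibroblast markers, 8.72 against 9.57 to 10.43. Chd8 V986*/+ replicate 3 at 1 month had the lowest mean of meningeal fibroblast markers, 7.11 against 7.64 to 8.73. Its mean over the 33 genes, 8.44, was also the lowest but did not stand apart. Its homeostatic mean was 9.21 against 9.22 in replicate 4 of its group, and its pan-myeloid mean, 7.54, was above the 7.44 of that mouse. WT mice at 12 months varied widely, with a median SD of 0.216 over the 33 genes against 0.116 in Chd8 V986*/+ mice of that age; over all genes the median SDs were 0.184 and 0.122.

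The largest change of the microglia genes was between E14.5 and 1 month. In WT mice all 33 genes were called, 32 higher and 1 lower at 1 month, and in Chd8 V986*/+ mice the counts were the same. Over all genes tested, 85.5% were called in WT mice, 43.9% as higher, and 86.5% were called in Chd8 V986*/+ mice, 44.5% as higher. The median change in WT mice was 2.72 for homeostatic genes, 2.55 for complement genes, 1.89 for activation genes and 1.60 for pan-myeloid genes, against 0.03 for all genes tested. These medians were 2.69, 2.50, 1.98 and 1.56 in Chd8 V986*/+ mice. All 33 genes were without overlap between the 1-month and the E14.5 mice of a genotype, as were 68.5% of all genes tested in WT mice and 69.4% in Chd8 V986*/+ mice.

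Among homeostatic genes, Selplg, which encodes P-selectin glycoprotein ligand 1, had the largest rise. Its lowest, median and highest values in WT mice were 4.36, 4.80 and 4.94 at E14.5 and 9.46, 9.57 and 9.76 at 1 month. The change was 4.84 (SE 0.09, adjp = 1.99e-26) in WT mice and 4.97 (SE 0.09) in Chd8 V986*/+ mice. P2ry12, the ADP receptor that directs microglial processes, had values of 6.69, 6.90 and 6.99 in WT mice at E14.5 and of 10.12, 10.27 and 10.56 at 1 month, a rise of 3.45 (SE 0.10). No value at 1 month came near an embryonic value for either gene. Tmem119, a membrane protein of parenchymal microglia, rose by 3.37, the lectin gene Siglech by 3.26, Gpr34 by 2.97 and the nucleotide receptor gene P2ry13 by 2.77. Csf1r, the receptor for the microglial survival factors CSF1 and IL-34, rose by 2.67 and the fractalkine receptor gene Cx3cr1 by 2.61. Smaller rises were those of Fcrls, 1.97, Olfml3, 1.74, and Hpgds, a prostaglandin D synthase gene, 0.87.

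Sall1 moved the other way. Sall1 encodes a transcription factor that in the adult brain marks microglia and that in the embryo is also made by neural progenitors. Its lowest, median and highest values in WT mice were 10.94, 11.24 and 11.96 at E14.5 and 9.57, 9.65 and 9.91 at 1 month, so it fell by 1.63 on the log2 scale (SE 0.13, adjp = 8.21e-12). In Chd8 V986*/+ mice it fell by 1.90 (SE 0.16, adjp = 7.30e-12), from 11.02, 11.43 and 11.85 to 9.31, 9.54 and 9.68. It was the single gene of the 33 that was highest in the embryo, and the part of other cell types in its level was not tested.

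Of the complement genes, Itgam rose most. It stood at 5.57, 5.79 and 5.88 in WT mice at E14.5 and at 9.61, 9.67 and 9.81 at 1 month, a rise of 3.93 (SE 0.07, adjp = 7.70e-26). The C1q genes lie side by side on the minus strand of chromosome 4 in mm9, C1qb from 136436044 to 136442102, C1qc from 136445719 to 136448980 and C1qa from 136451832 to 136454718. C1qa rose by 2.76 (SE 0.09), from 7.02, 7.14 and 7.54 to 9.78, 9.96 and 10.07. C1qc rose by 2.35 and C1qb by 2.27. All 4 complement genes were thus higher at 1 month, Itgam by the widest margin.

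Among activation genes, Ctss, which encodes the lysosomal protease cathepsin S, rose most. Its values in WT mice were 6.98, 7.05 and 7.44 at E14.5 and 10.38, 10.48 and 10.62 at 1 month, a rise of 3.38 (SE 0.08, adjp = 1.38e-23). Trem2, a lipid-sensing receptor, rose by 2.52 (SE 0.10), from 4.87, 5.17 and 5.32 to 7.35, 7.66 and 7.86. Cd74, the MHC class II invariant chain, rose by 2.41 and Cd14, an endotoxin co-receptor, by 2.34. Mpeg1, which encodes perforin-2, rose by 1.89 and the Fc receptor gene Fcgr3 by 1.84. The TREM2 adaptor gene Tyrobp rose by 1.68, the lysosomal gene Cd68 by 1.44 and the Fc receptor chain gene Fcer1g by 1.18.

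The pan-myeloid genes rose least. Cd53, a tetraspanin gene, went from 5.38, 5.68 and 6.06 in WT mice at E14.5 to 7.55, 7.86 and 8.06 at 1 month, a rise of 2.16 (SE 0.12). Inpp5d, which encodes the lipid phosphatase SHIP1, rose by 1.93 (SE 0.09), from 6.94, 7.18 and 7.27 to 8.89, 9.03 and 9.26. Aif1, which encodes IBA1, rose by 1.92, Ly86 by 1.63, Laptm5 by 1.57, Irf8 by 1.40 and Ptprc, which encodes CD45, by 1.29. Spi1, which encodes the myeloid transcription factor PU.1, rose by 0.99 in WT mice (SE 0.14) and by 0.67 in Chd8 V986*/+ mice (SE 0.12).

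**Figure D1:**
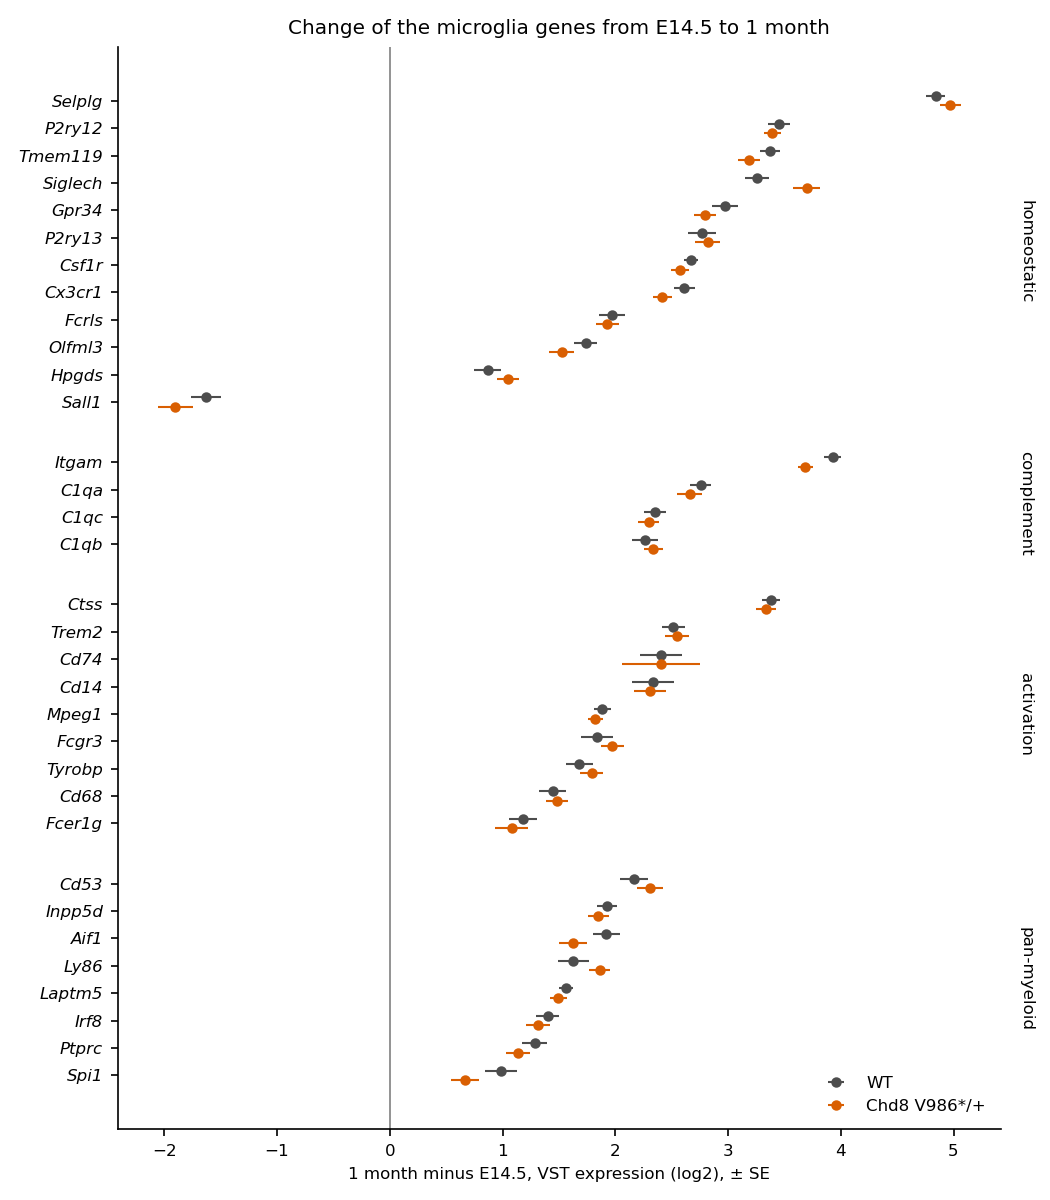
Change of each of the 33 genes from E14.5 to 1 month (x axis, log2 VST difference; points, estimate; bars, SE) in WT and Chd8 V986*/+ mice, 6 mice per age and genotype, with genes sorted within their group by the WT change. Sall1 is the only gene left of 0, at −1.63 in WT mice, and Selplg is farthest right, at 4.84.

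The plot of changes by gene shows the same order of groups in both genotypes. Markers of other cells of the tissue were also called at this step in WT mice, as were 85.5% of all genes tested. Of 8 border macrophage markers 2 rose and 5 fell (median −1.03), and of 8 meningeal fibroblast markers 1 rose and 7 fell (median −1.55). All 6 red blood cell markers fell (median −1.98). All 8 astrocyte markers and all 8 oligodendrocyte markers rose, with medians of 3.97 and 6.36. The part of these changes in tissue composition in the values of the microglia genes was not tested.

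Partners of microglial receptors were also called at this step. Cx3cl1, the neuronal ligand of CX3CR1, rose by 5.56 in WT mice, Il34, a ligand of CSF1R, by 5.13 and Csf1, its other ligand, by 0.72, whereas Cd200, a neuronal ligand that restrains microglia, fell by 0.30. Mertk, a receptor for phagocytosis, rose by 4.71 and Itgb2, the partner chain of CD11b, by 2.64, while the TGF-beta receptor gene Tgfbr1 fell by 1.84. Of the 14 ligands, receptors and partners listed, 9 rose and 2 fell, where 85.5% of all genes tested were called, 43.9% as higher. The share of the 14 called was thus below that of all genes. Of 11 other complement genes, 8 rose and 2 fell in WT mice, a share called near that of all genes. C4b had the largest rise, 5.40. C3, the central complement component, fell by 0.99 and Serping1, the C1 inhibitor gene, by 0.90.

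The promoters of the 33 genes were searched for letters bound by PU.1 and by interferon regulatory factors (IRF), the family of Irf8. RefSeq promoter sequences, from 250 bases before to 50 bases after the gene start in GRCm38.p6, were at hand for 24 of the 33 genes. The PU.1 letters GAGGAAGT occurred on either strand in 5 of the 24, Inpp5d, C1qc, Hpgds, Ctss and Cd53, which is 20.8% against 3.28% of 27025 promoters in all. The IRF letters GAAANNGAA occurred in Ctss, Aif1 and Ly86, 12.5% against 8.57%, and the composite letters GGAANNGAA, which partly overlap the former, in Ctss and Cd68, 8.33% against 8.25%. The sequences below show 5 matches with the bases around them, so that the letters behind these shares can be seen, read 5′ to 3′ along the gene's strand with the match in capitals, for Inpp5d (chr1:87620276-87620311, plus strand), C1qc (chr4:136893086-136893125, minus strand), Hpgds (chr6:65144756-65144795, minus strand), Ctss (chr3:95526749-95526785, plus strand) and Aif1 (chr17:35176185-35176225, minus strand). The first 3 hold the PU.1 letters and the last 2 the IRF letters; in C1qc the match is on the opposite strand. The matches lie 20, 195, 49, 21 and 157 bases before the gene start, in the same order.
Inpp5d: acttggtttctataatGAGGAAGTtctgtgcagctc
C1qc: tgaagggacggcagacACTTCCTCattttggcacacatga
Hpgds: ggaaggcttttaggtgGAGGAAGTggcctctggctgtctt
Ctss: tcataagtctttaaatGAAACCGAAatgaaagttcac
Aif1: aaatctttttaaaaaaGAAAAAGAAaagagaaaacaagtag
A match of letters is a description and not a site of binding, and a relation of the letters to the change with age was not tested. The 5 genes that carried the PU.1 letters had changes from E14.5 to 1 month in WT mice from 0.87 for Hpgds to 3.38 for Ctss.

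Between 1 and 6 months, most of the few genes called as lower were homeostatic. Those called as higher were activation genes, in numbers below the share of all genes in WT mice and near it in Chd8 V986*/+ mice. Of the calls as higher, only that of Ctss in Chd8 V986*/+ mice was kept in every fit that left out 1 mouse. In WT mice 7 of the 33 genes were called, 6 lower and 1 higher at 6 months, where 14.8% of all genes tested were called, 7.91% as lower and 6.86% as higher. Of the 12 homeostatic genes 5 fell, none rose, and the median was −0.23. Of the 9 activation genes 1 rose, none fell, and the median was 0.02. No complement gene was called, with a median of −0.06, and 1 of the 8 pan-myeloid genes fell.

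Fcrls, an Fc receptor-like gene on chromosome 3 (87054680 to 87067660, minus strand, mm9), fell most in WT mice. Its lowest, median and highest values were 9.54, 9.58 and 9.83 at 1 month and 9.04, 9.11 and 9.34 at 6 months, and it fell by 0.48 on the log2 scale (SE 0.12, adjp = 0.0086). Csf1r fell by 0.23 (SE 0.06, adjp = 0.018), from 11.52, 11.57 and 11.84 to 11.33, 11.38 and 11.43. Fcrls and Csf1r were the genes among the 33 for which the 1-month and 6-month WT mice did not overlap. They were 6.06% of the 33, below the 8.47% of all genes tested that were without overlap. Inpp5d fell by 0.35 (SE 0.09, adjp = 0.013), from 8.89, 9.03 and 9.26 to 8.47, 8.73 and 8.89.

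Tmem119 fell by 0.26 (SE 0.09, adjp = 0.065), from 9.24, 9.41 and 9.62 to 8.94, 9.22 and 9.27. Cx3cr1 fell by 0.25 (SE 0.09, adjp = 0.074), from 10.62, 10.80 and 11.06 to 10.38, 10.61 and 10.74. Selplg fell by 0.23 (SE 0.09, adjp = 0.082), from 9.46, 9.57 and 9.76 to 9.25, 9.29 and 9.50. In these 3 genes the lowest 1-month mice lay within the range of the 6-month mice. Ctss was the gene that rose in WT mice, by 0.21 (SE 0.08, adjp = 0.098), from 10.38, 10.48 and 10.62 to 10.57, 10.74 and 10.77. Its call was lost in a fit with a term for replicates 1 to 3 against 4 to 6 (adjp = 0.112), with the replicate block (adjp = 0.104), without a filter, without the intensity trend and with quantile normalization (adjp from 0.118 to 0.122). The call of Selplg was lost with the replicate block (adjp = 0.109) and with quantile normalization (adjp = 0.118). Of these 7 calls, those of Fcrls, Csf1r and Inpp5d were kept in all 24 fits that left out 1 mouse. The calls of Ctss, Cx3cr1, Selplg and Tmem119 were lost in 16, 8, 8 and 5 of the 24, with adjp up to 0.18, 0.18, 0.19 and 0.16. That of Tmem119 was lost without replicates 1, 3 or 5 at 1 month or 1 or 5 at 6 months.

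In Chd8 V986*/+ mice 5 of the 33 genes were called over the same interval, 4 higher and 1 lower, where 21.8% of all genes tested were called, 11% as higher and 10.8% as lower. All 4 that rose were activation genes. The count called was below the share of all genes, and the count called as higher was near it. Ctss rose by 0.34 (SE 0.09, adjp = 0.010), from 10.08, 10.35 and 10.42 to 10.51, 10.60 and 10.81, without overlap between the ages. Mpeg1 rose by 0.20 (SE 0.07, adjp = 0.041), from 9.71, 9.97 and 10.11 to 9.96, 10.18 and 10.24. Trem2 rose by 0.31 (SE 0.11, adjp = 0.052), from 7.28, 7.54 and 7.71 to 7.73, 7.85 and 7.88, also without overlap. No other gene of the 33 was without overlap. Ctss and Trem2 were 6.06% of the 33, below the 9.37% of all genes tested that were without overlap.

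Cd74 rose by 0.91 in Chd8 V986*/+ mice (SE 0.35, adjp = 0.076), from 5.44, 6.00 and 6.60 at 1 month to 6.46, 6.77 and 7.85 at 6 months, where the ages overlapped and replicate 2 was highest. Without that mouse the change was 0.73 (adjp = 0.18), and the call was lost in 7 of 24 fits without 1 mouse. It was also lost without a filter (adjp = 0.117) and without the intensity trend (adjp = 0.104). Fcrls fell by 0.38 in Chd8 V986*/+ mice (SE 0.10, adjp = 0.012), from 9.23, 9.60 and 9.68 to 8.92, 9.16 and 9.40. Fcrls and Ctss were thus called in both genotypes. The call of Mpeg1 was lost without replicate 3 of the 1-month Chd8 V986*/+ mice (0.15, adjp = 0.12) and that of Trem2 without replicate 5 (0.26, adjp = 0.13).

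**Figure D2:**
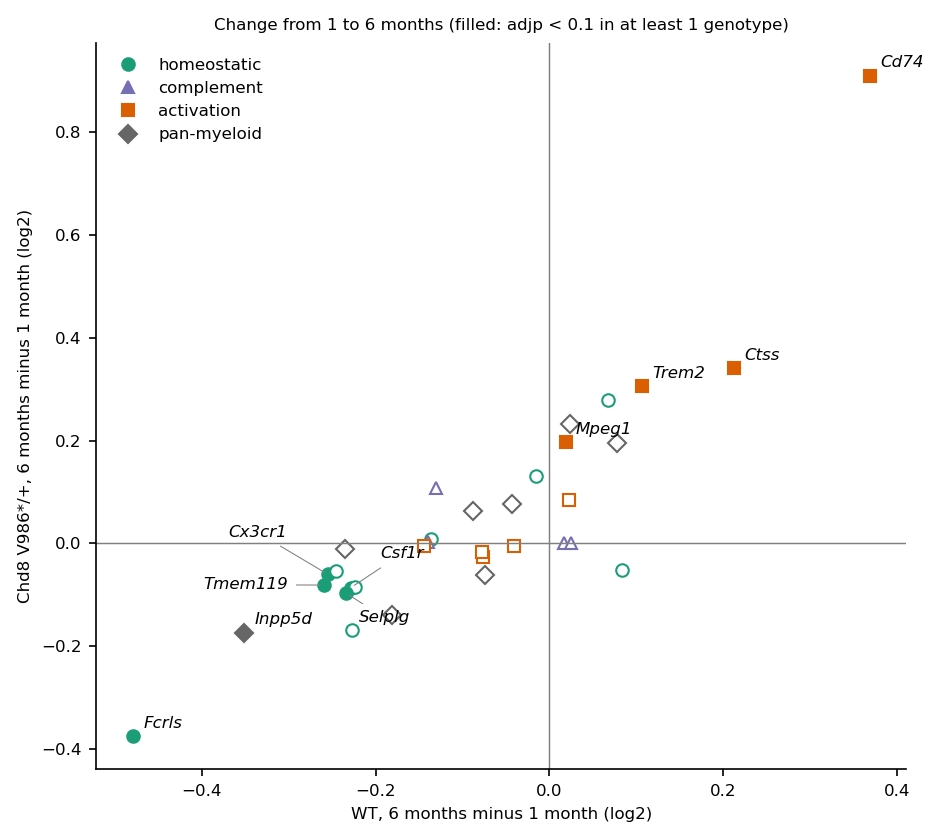
Change of each of the 33 genes from 1 to 6 months in WT mice (x axis) and in Chd8 V986*/+ mice (y axis), as log2 VST differences, with symbols for the 4 groups and filled symbols for genes with adjp below 0.1 in at least 1 genotype. Fcrls lies lowest on both axes, at −0.48 and −0.38, and Cd74 highest on the y axis, at 0.91.

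The plot of both genotypes places the homeostatic genes that fell in WT mice closer to 0 in Chd8 V986*/+ mice, where Csf1r, Cx3cr1, Selplg and Tmem119 were not called. The difference of the changes between genotypes was tested for every gene, and no member was called, where 0% of all genes tested were called. At an unadjusted p below 0.05 the changes differed for 1 of the 33 genes, Itgam (0.24, SE 0.10), where 3.36% of all genes tested differed, and 30 of the 33 differences were above 0, with a median of 0.14. Over the same interval in WT mice, 4 of 8 border macrophage markers fell (median −0.51), 4 of 8 meningeal fibroblast markers fell (median −0.30) and 7 of 8 oligodendrocyte markers fell (median −0.79). In Chd8 V986*/+ mice none of the 8 border macrophage markers fell (median −0.14), 1 of 8 meningeal fibroblast markers fell (median −0.01) and 7 of 8 oligodendrocyte markers fell (median −0.98). The part of these cells in the changes of the microglia genes was not tested.

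Between 6 and 12 months none of the 33 genes was called in WT mice, where 0.0115% of all genes tested were called, or in Chd8 V986*/+ mice, where 1.88% were called. At an unadjusted p below 0.05 by limma, 8 genes differed in WT mice, where 7.40% of all genes tested did, and 4 in Chd8 V986*/+ mice, near the share of all genes tested, 13.3%. All 8 in WT mice were higher at 12 months: C1qa (difference 0.30, SE 0.09, adjp = 0.58), C1qb (0.27), Ctss (0.18), Fcer1g (0.29), Trem2 (0.23), Tyrobp (0.32), Irf8 (0.31) and Ly86 (0.34). C1qa had values of 9.83, 9.95 and 10.13 in WT mice at 6 months and of 10.03, 10.22 and 10.70 at 12 months, with overlap. The 4 in Chd8 V986*/+ mice were Hpgds (difference 0.32, SE 0.10, adjp = 0.11), Spi1 (0.40, SE 0.12, adjp = 0.13), P2ry13 (0.25) and Cd68 (0.23). Trem2 was the single gene without overlap, in Chd8 V986*/+ mice, at 7.73 to 7.88 and 7.89 to 8.17 (difference 0.16, adjp = 0.57), where 1.79% of all genes tested were without overlap. No test of the difference of these changes between genotypes was called for any of the 33, where 0.0578% of all genes tested were called.

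Chd8 V986*/+ and WT mice were next compared at each age. None of the 33 microglia genes was called at E14.5, 1 month, 6 months or 12 months by limma, where 0.00593%, 0.139%, 0.0927% and 0.0463% of all genes tested were called. At an unadjusted p below 0.05, 1, 7, 3 and 4 of the 33 genes differed at the 4 ages, where 4.56%, 8.80%, 7.59% and 11.6% of all genes tested did. The shares of the microglia genes at E14.5, 6 months and 12 months were near those of all genes. No gene was without overlap between the genotypes at any age. The median difference over the 33 genes, Chd8 V986*/+ minus WT, was −0.04 in embryos and, in order of age after birth, −0.09, 0.05 and 0.00.

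At E14.5, 14 genes were higher and 19 lower in Chd8 V986*/+ mice. Siglech, a sialic acid-binding lectin, had the lowest unadjusted p. Its lowest, median and highest values were 4.93, 5.21 and 5.71 in WT mice and 4.17, 4.74 and 5.16 in Chd8 V986*/+ mice, a difference of −0.54 (SE 0.19, adjp = 0.98). The groups overlapped between 4.93 and 5.16. In a single fit of all 48 samples Siglech was called (adjp = 0.026) and was the single microglia gene called at this age. Over all genes tested, 93 were called in that fit, against 1 in the fit of this age alone. The fit of all 48 samples takes its spread from mice of all ages, so its p does not measure the spread between embryos alone. Without Chd8 V986*/+ replicate 2, 17 genes were higher and 16 lower. All 12 midbrain, hindbrain and spinal cord markers were lower in Chd8 V986*/+ embryos (median −1.23, none called). Their mean was 7.31 in WT replicate 5 against 2.97 to 5.37 in the other 11 embryos, and the part of the dissection in the values was not tested.

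At 1 month, 28 of the 33 genes were lower in Chd8 V986*/+ mice and 5 higher. By group, 11 of 12 homeostatic, 4 of 4 complement, 6 of 9 activation and 7 of 8 pan-myeloid genes were lower. The median difference over all genes tested was −0.0029. Most of the 33 genes varied together from mouse to mouse, so counts of higher and lower genes are not independent observations, here or at other ages. Ctss had the lowest unadjusted p, at 10.38, 10.48 and 10.62 in WT mice and 10.08, 10.35 and 10.42 in Chd8 V986*/+ mice, a difference of −0.18 (SE 0.06, adjp = 0.37). C1qc stood at 9.78, 9.94 and 10.13 against 9.59, 9.81 and 9.94, a difference of −0.16 (SE 0.07, adjp = 0.48). Spi1 stood at 6.36, 6.61 and 6.88 against 6.10, 6.38 and 6.50, a difference of −0.27 (SE 0.10, adjp = 0.46). Laptm5, a lysosomal membrane protein gene, differed by −0.15, Cx3cr1 by −0.14, Itgam by −0.13 and Sall1 by −0.16, each with an unadjusted p below 0.05. None of these values passed the adjustment.

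At the same age all 8 border macrophage markers (median −0.32) and all 8 meningeal fibroblast markers (median −0.40) were lower in Chd8 V986*/+ mice, and so were 7 of 8 endothelial markers (median −0.11) and 7 of 8 monocyte and neutrophil markers (median −0.35), none of them called. The mean of the border macrophage markers ranged from 5.73 to 6.40 in WT mice and from 5.28 to 6.06 in Chd8 V986*/+ mice, and that of the meningeal fibroblast markers from 8.07 to 8.73 and from 7.11 to 8.71. No marker of either list was at the floor in all 6 mice of a group. Without Chd8 V986*/+ replicate 3, 24 microglia genes were lower and 9 higher, with a median of −0.05. The part of these cells in the differences was not tested.

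At 6 months the balance was the other way, with 26 genes higher in Chd8 V986*/+ mice and 7 lower. P2ry12 stood at 9.90, 10.07 and 10.28 in WT mice and 10.11, 10.25 and 10.54 in Chd8 V986*/+ mice, a difference of 0.21 (SE 0.08, adjp = 0.54). Mpeg1 stood at 9.95, 10.05 and 10.11 against 9.96, 10.18 and 10.24, a difference of 0.12 (SE 0.05, adjp = 0.58), and Itgam at 9.50, 9.57 and 9.62 against 9.55, 9.66 and 9.82, a difference of 0.11 (SE 0.05, adjp = 0.62). All 8 meningeal fibroblast markers were higher in Chd8 V986*/+ mice at this age (median 0.23) as were 7 of 8 endothelial markers (median 0.14) and 6 of 8 border macrophage markers (median 0.09). Without Chd8 V986*/+ replicate 2, which had the highest meningeal mean, 8.50 against 7.58 to 7.98 in the other Chd8 V986*/+ mice of the age, 17 microglia genes were higher and 16 lower, with a median of 0.00. Without Chd8 V986*/+ replicate 5, whose meningeal mean was not high, 19 were higher and 14 lower, with a median of 0.02. The part of meningeal cells in the balance was not tested.

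At 12 months 16 genes were higher and 17 lower in Chd8 V986*/+ mice. The C1q genes were all lower. C1qa stood at 10.03, 10.22 and 10.70 in WT mice and 9.79, 10.03 and 10.14 in Chd8 V986*/+ mice, a difference of −0.25 (SE 0.10, adjp = 0.34). C1qb differed by −0.24 and C1qc by −0.11, while Itgam was higher by 0.11. WT replicate 6 was the highest mouse for each C1q gene, with 10.70 for C1qa, 10.68 for C1qb and 10.29 for C1qc. Of 8 border macrophage markers 7 were lower in Chd8 V986*/+ mice at this age (median −0.16, none called), and their part in the values was not tested.

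Olfml3, which encodes a secreted olfactomedin-like protein, stood at 8.87, 8.998 and 9.14 in WT mice at 12 months and at 8.56, 8.75 and 9.02 in Chd8 V986*/+ mice, a difference of −0.23 (SE 0.08, adjp = 0.29). Aif1 was the pan-myeloid gene with the lowest unadjusted p, at 6.32, 6.56 and 6.69 against 6.61, 6.83 and 6.93, a difference of 0.28 (SE 0.10, adjp = 0.31). Sall1 was higher by 0.33 (SE 0.14, adjp = 0.40). Cd74 had the largest difference, 0.57 (SE 0.31, adjp = 0.48), with values of 6.43, 6.93 and 7.19 against 6.62, 7.11 and 9.11. Chd8 V986*/+ replicate 6 alone held the value of 9.11, the next being 7.70, and without it the difference was 0.23 (adjp = 0.70).

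**Figure D3:**
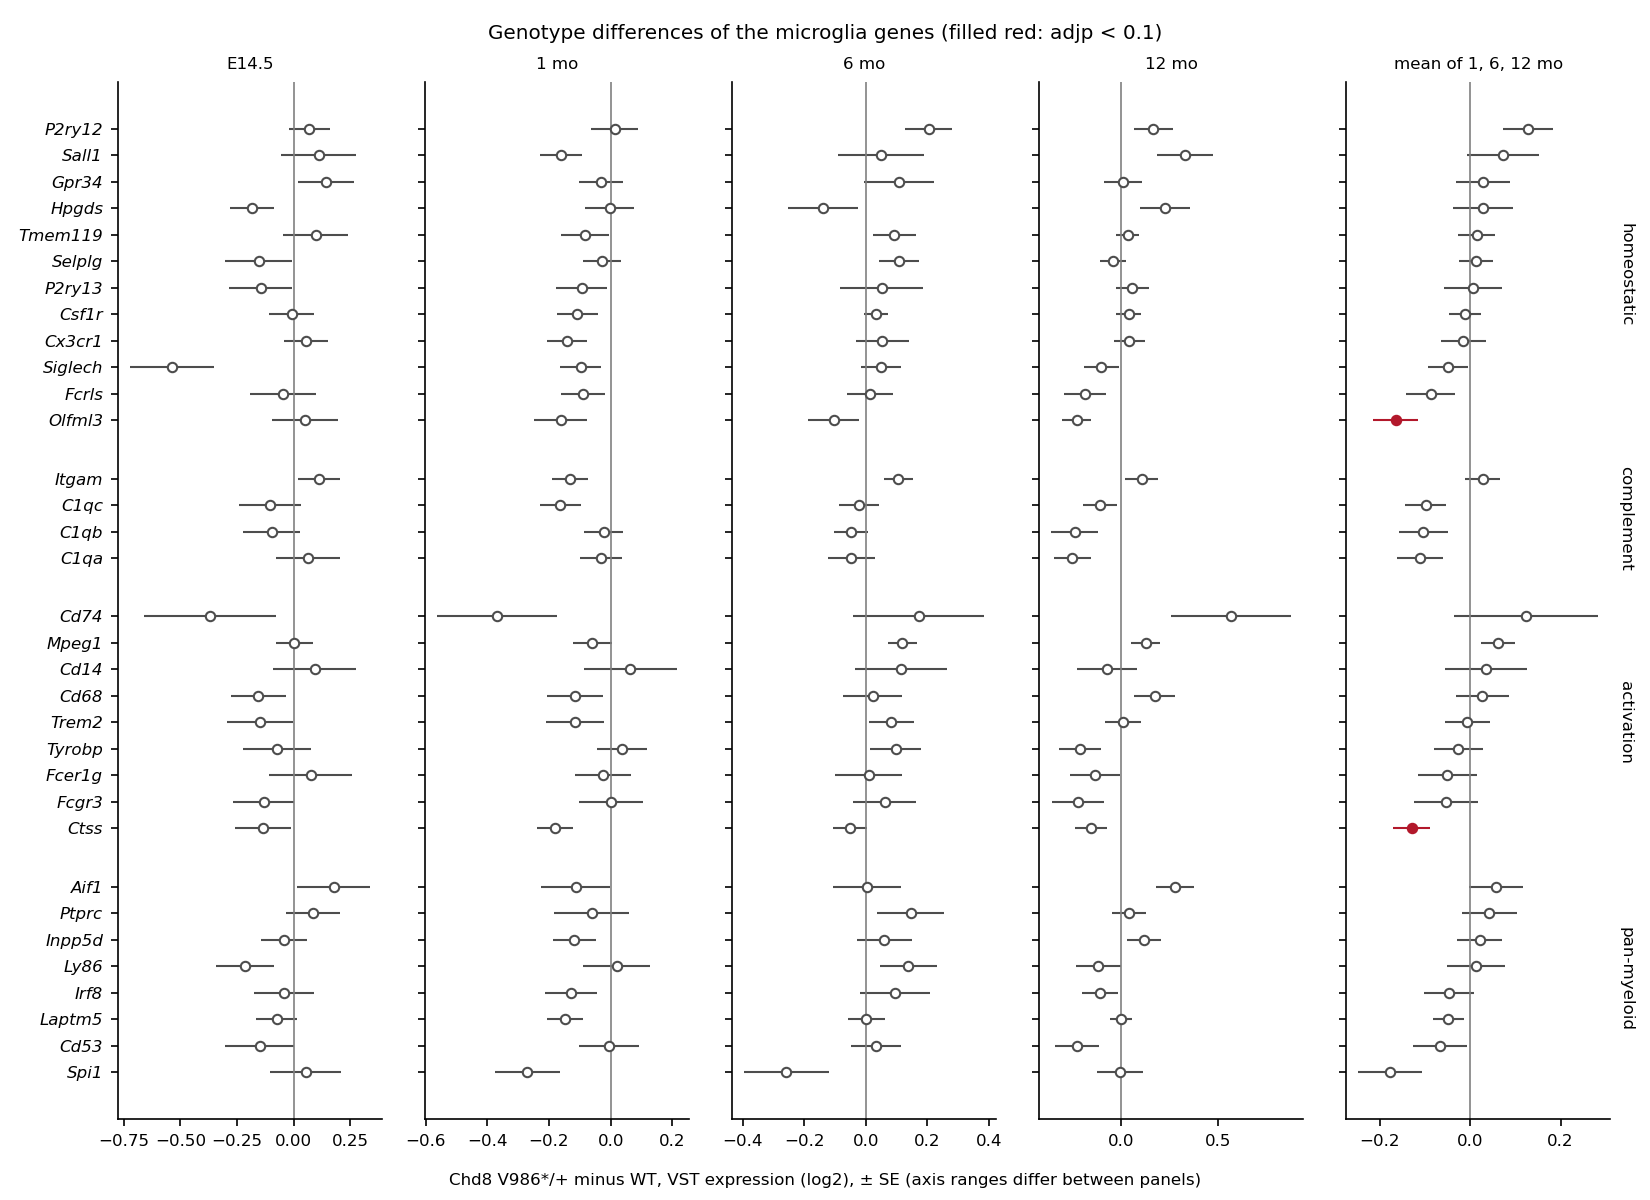
Difference of each of the 33 genes between Chd8 V986*/+ and WT mice (x axis, log2 VST difference; points, estimate; bars, SE) at each of the 4 ages and for the mean of 1, 6 and 12 months, with 6 mice per genotype and age. No gene is filled red, for adjp below 0.1, at a single age; Olfml3, −0.17, and Ctss, −0.13, are filled for the mean of the postnatal ages.

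Over the 36 postnatal mice, in a fit of the mean difference at 1, 6 and 12 months, 2 of the 33 genes were called, both lower in Chd8 V986*/+ mice. Over all 17257 genes tested, 2.82% were called and 1.5% were called as lower. The median difference over the 33 was −0.01, with 16 higher and 17 lower.

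Olfml3 lies on the minus strand of chromosome 3 (103537623 to 103541924, mm9). It was lower in Chd8 V986*/+ mice by 0.17 on average (difference −0.17, SE 0.05, adjp = 0.082), with WT means of 9.07, 8.85 and 9.004 and Chd8 V986*/+ means of 8.91, 8.74 and 8.77 in order of age. Ctss lies on the plus strand of the same chromosome (95330708 to 95360325). Its difference was −0.13 (SE 0.04, adjp = 0.098), with WT means of 10.49, 10.70 and 10.88 and Chd8 V986*/+ means of 10.31, 10.65 and 10.72. Chd8 V986*/+ means lay below WT means at each postnatal age for both genes, with overlapping mice at every age.

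Both calls were near the threshold. The call of Ctss was lost in 24 of 36 fits without 1 mouse, with adjp up to 0.16, and that of Olfml3 in 19 of 36, with adjp up to 0.14. The call of Ctss was also lost with the replicate block (adjp = 0.106), without a filter (adjp = 0.123), without the intensity trend (adjp = 0.127) and with quantile normalization (adjp = 0.143), and that of Olfml3 without a filter (adjp = 0.106). The genes next in order of unadjusted p were Spi1 (difference −0.18, SE 0.07, adjp = 0.24), P2ry12 (0.13, SE 0.05, adjp = 0.28), C1qa (−0.11, adjp = 0.34) and C1qc (−0.10, adjp = 0.35), none of them called.

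**Figure D4:**
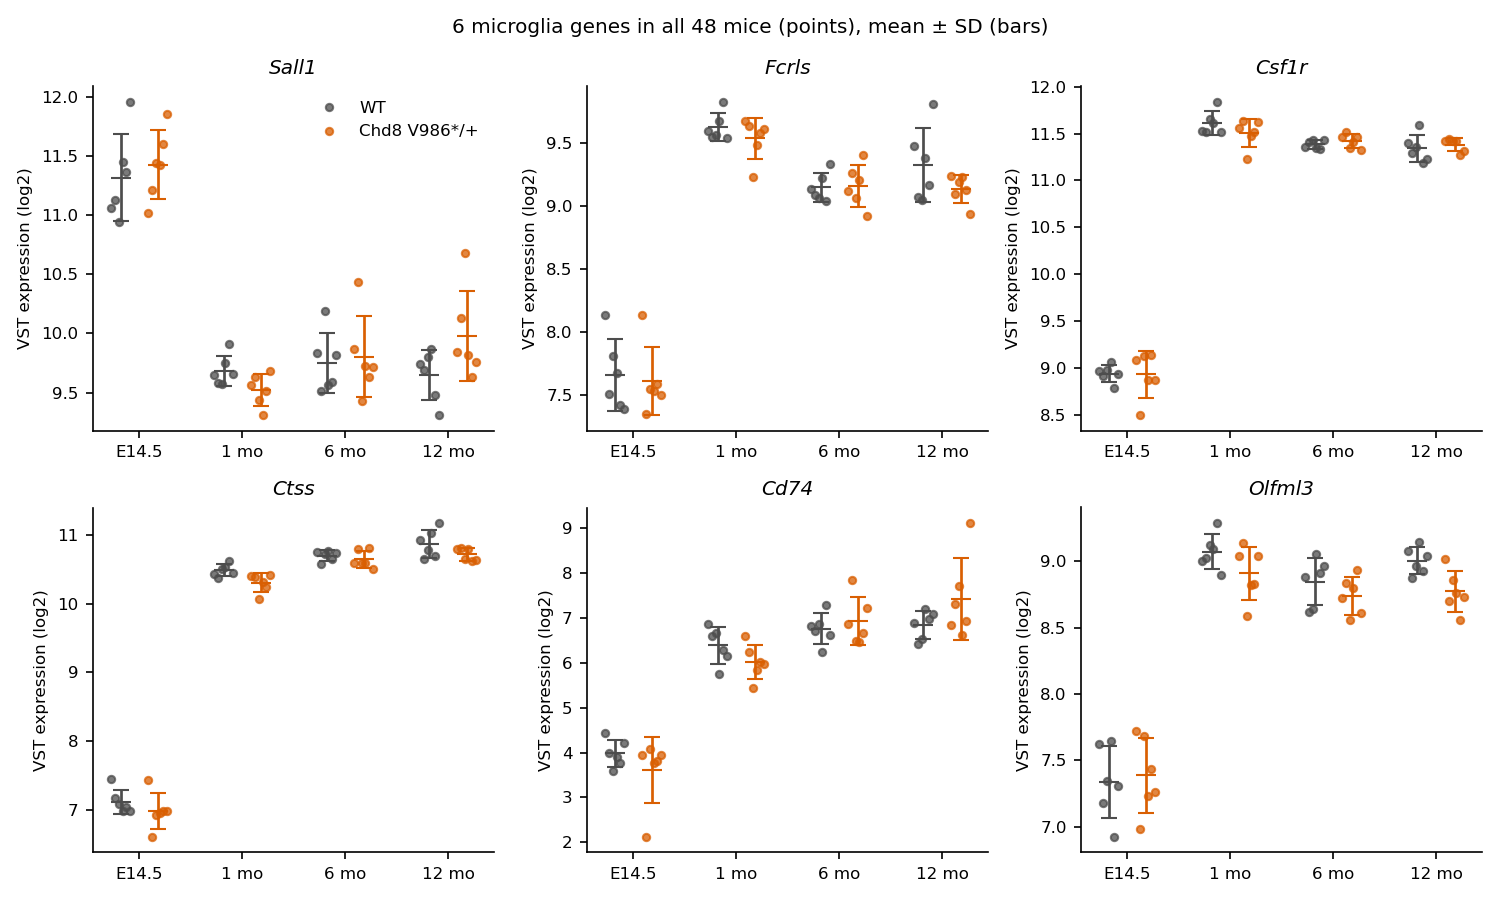
VST expression (y axis, log2) of Sall1, Fcrls, Csf1r, Ctss, Cd74 and Olfml3 in each of the 48 mice (points) by age and genotype, with the mean and SD of each group of 6 (bars). Sall1 is highest at E14.5 and the other 5 genes are lowest there; the single Chd8 V986*/+ mouse at 9.11 for Cd74 stands apart at 12 months.

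The plot of single genes shows the differences between genotypes against the change with age. For Ctss, the postnatal difference of −0.13 compares with a rise of 3.38 from E14.5 to 1 month in WT mice, and for Olfml3 the values are −0.17 and 1.74.

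The groups were also compared within each mouse, by the mean VST expression of the 9 activation genes less that of the homeostatic genes without Sall1. The activation mean was nearer the floor at each age, and the part of the scale in the shifts with age was not tested. The difference between the 2 means was lower at 1 month than at E14.5 and higher again at 6 months. In WT mice its mean was −0.75 at E14.5 (SD 0.09, n = 6), −1.45 at 1 month (SD 0.13), −1.20 at 6 months (SD 0.10) and −1.14 at 12 months (SD 0.16). The means in Chd8 V986*/+ mice were −0.78 (SD 0.12), −1.46 (SD 0.07), −1.17 (SD 0.11) and −1.13 (SD 0.12). The genotypes differed by at most 0.03 at each age, less than the SD between mice. In both genotypes, no mouse at E14.5 overlapped with a mouse at 1 month.

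The mean of the C1q genes less that of the homeostatic genes without Sall1 was 0.83 in WT mice at E14.5 (SD 0.11), 0.51 at 1 month (SD 0.09), 0.68 at 6 months (SD 0.13) and 0.82 at 12 months (SD 0.26). The Chd8 V986*/+ means were 0.85 (SD 0.16), 0.52 (SD 0.09), 0.60 (SD 0.11) and 0.61 (SD 0.07). At 12 months the WT mice ranged from 0.47 to 1.19 and the Chd8 V986*/+ mice from 0.54 to 0.72, inside the WT range. These are descriptions, with no test, and since the groups hold different genes only their changes between samples are compared.

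**Figure D5:**
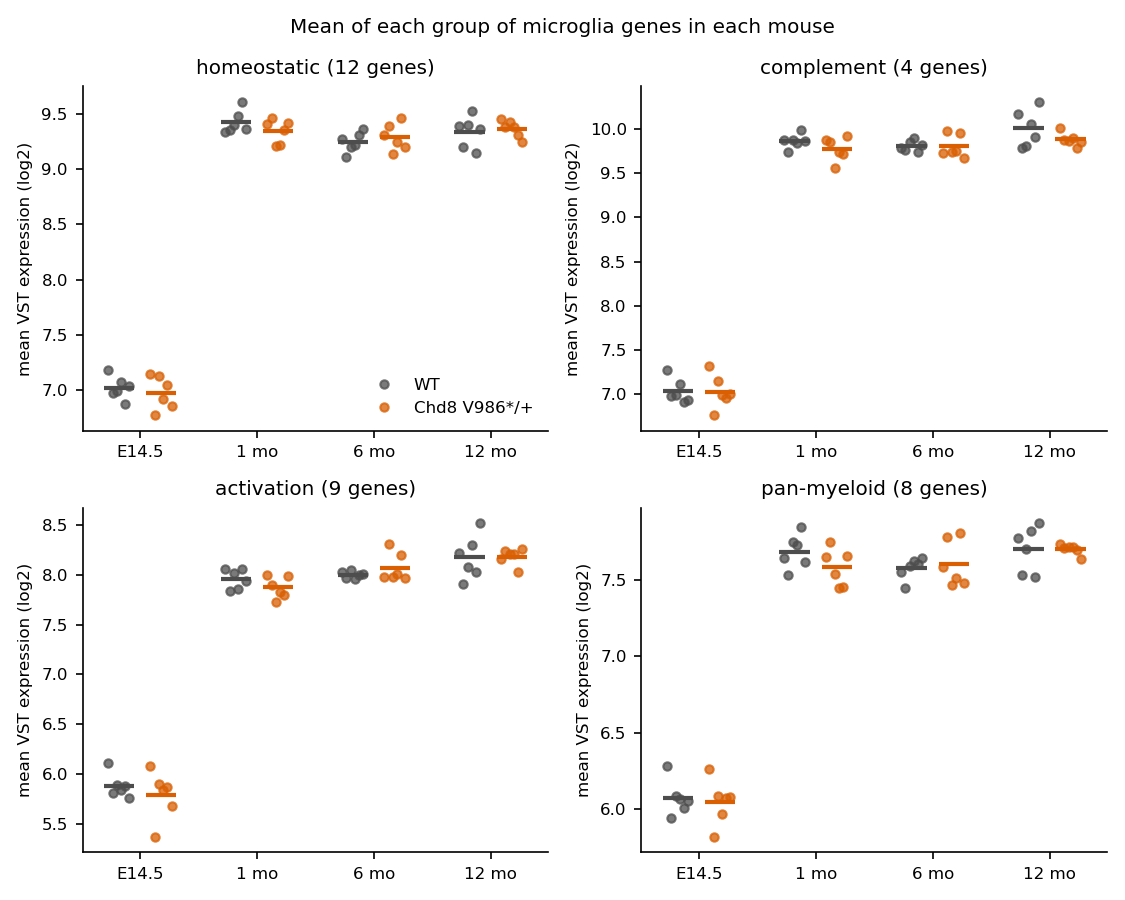
Mean VST expression (y axis, log2) of the homeostatic, complement, activation and pan-myeloid genes in each mouse (points) by age and genotype, with horizontal lines at the mean of each group of 6. All postnatal mice lie above all embryos in each panel, and the WT mice at 12 months are more widely spread than the Chd8 V986*/+ mice of that age.

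The plot of group means shows that the groups varied together from mouse to mouse. After removal of the mean of each age and genotype, each gene was correlated with the mean of the other 32 over the 36 postnatal mice. The correlations ranged from 0.09 for Cd74 to 0.90 for Ctss with a median of 0.60, and 21 of the 33 were above 0.5. Over the 12 embryos they ranged from −0.52 for Itgam to 0.94 for C1qa with a median of 0.62, and that of Sall1 was −0.31. The median over the postnatal mice was 0.72 for complement genes, 0.63 for pan-myeloid genes, 0.52 for activation genes and 0.48 for homeostatic genes. The values share library and depth, so these correlations are given as a description.

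The difference of the change from E14.5 to 1 month between genotypes was called for none of the 33 genes, where 0% of all genes tested were called. At an unadjusted p below 0.05 the changes differed for 2 of the 33, Siglech (0.44, SE 0.16) and Itgam (−0.24, SE 0.10), near the share of all genes tested, 4.60%.

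Genes of related lists were tested in the same fits. Of 12 genes known from disease-associated microglia, 4 were called as lower in Chd8 V986*/+ mice over the postnatal ages, where 1.5% of all genes tested were called as lower: Cd9, a tetraspanin (−0.18, adjp = 0.0065), Clec7a, a glucan receptor (−0.49, adjp = 0.037), Ctsb, cathepsin B (−0.09, adjp = 0.034), and Ctsd, cathepsin D (−0.12, adjp = 0.086). Cd9 was also called at 6 months (−0.26, adjp = 0.083), where 0.0927% of all genes tested were called. Whether these calls are kept without single mice or under other settings was not examined. Cd9, Ctsb and Ctsd are expressed by many cell types of the brain and by oligodendrocytes in the case of Cd9. Over the mean of the postnatal ages all 8 oligodendrocyte markers were lower in Chd8 V986*/+ mice (median −0.09), with 6 of 8 lower at 1 month (median −0.03), 8 of 8 at 6 months (median −0.19) and 3 of 8 at 12 months (median 0.02), none of them called. Their part in these calls was not tested. Of the 14 ligands, receptors and partners and the 11 other complement genes, none was called between genotypes at any age or over the postnatal ages.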

How the data were processed

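RNA from the cortex of a single hemisphere of 48 male mice was sequenced. The authors aligned reads to mm9 and quantified genes (the labels name STAR 2.5.2b, Salmon 0.11.3, DESeq 1.22.2 and DESeq2), modeled batch effects, and deposited log2-scale VST values for 24444 genes. The labels and the study's methods name different library kits. In the deposited values, the means of replicates 1 to 3 and of replicates 4 to 6 were equal for every gene within 3.38e-14, so a difference between those sets had been removed, and the sources used here do not say what the sets are. Counts were not used here, so the depth behind single genes is unknown. Controls were littermates, and which mice shared a litter is not given in the sources used here.

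Genes with a mean at least 0.5 above the most frequent value (2.1433, 15.7% of values) over the samples of a fit were tested with limma 3.58.1 (R 4.3.3, intensity trend, two-sided), with Benjamini-Hochberg adjustment over all genes tested. Genotypes were compared at each age (12 samples) and over the mean of 1, 6 and 12 months (36 samples), ages within a genotype (24 samples), and changes between genotypes over all 48. For some of the comparisons the procedure was also run on simulated data in which each gene varied independently. That run does not bear on genes that vary together. Values by group were given for members called in any comparison and, in each group of members, for the 2 with the largest change from E14.5 to 1 month in WT mice and the 2 with the lowest unadjusted p between genotypes at any age; other listed genes were named where called between genotypes, and otherwise the 2 of each list with the largest difference. Other members and listed genes were named after their values were seen. The result of 1 listed gene is not reported here. The members, marker lists and tests were chosen with earlier results of these data known. Alternatives were other filters, thresholds, scalings, variance settings and sample sets, a replicate block, and leaving out each mouse. Gene positions are from the mm9 annotation and promoters from RefSeq (GRCm38.p6).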

Additional observations from a re-analysis of the deposited data

Results flagged for a closer look

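In 14 of 264 groups of 6 mice (33 genes in 8 groups), the highest or the lowest mouse lay apart from the other 5 by Dixon's test, of which chance flags about 1 group in 20. In Chd8 V986*/+ replicate 2 at E14.5, 3 genes were lowest: Cd74 at 2.13, the others at 3.77 to 4.07, Fcer1g at 5.32, the others at 6.10 to 6.37, and Tmem119 at 5.59, the others at 6.14 to 6.35. Among the other embryos, Tmem119 was lowest in WT replicate 5 at 5.59 (the others 6.05 to 6.24), Fcrls was highest in Chd8 V986*/+ replicate 1 at 8.13 (7.35 to 7.58) and C1qb was highest in WT replicate 1 at 8.04 (7.39 to 7.63).

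At 1 month, Ly86 was lowest in WT replicate 2 at 7.08 (the others 7.52 to 7.72) and Irf8 in Chd8 V986*/+ replicate 5 at 6.91 (7.09 to 7.18). In Chd8 V986*/+ mice at 6 months, Selplg was highest in replicate 2 at 9.69 (9.34 to 9.47) and Hpgds in replicate 5 at 7.77 (7.21 to 7.33), while Mpeg1 was lowest in replicate 3 at 9.96 (10.16 to 10.24) and Trem2 in replicate 6 at 7.73 (7.83 to 7.88). In Chd8 V986*/+ mice at 12 months, C1qb was highest in replicate 1 at 10.10 (9.82 to 9.92) and Cx3cr1 lowest in replicate 6 at 10.56 (10.80 to 10.87).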

How the results depend on the processing

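All 33 microglia genes were called in the same direction from E14.5 to 1 month under every alternative run, with 33 called in each fit without 1 mouse. Quantile normalization moved the median change of all genes at this step from 0.03 to −0.10 in WT mice, and the medians in Chd8 V986*/+ mice to 2.56 for homeostatic, 1.81 for activation and 1.40 for pan-myeloid genes. From 1 to 6 months, adjp below 0.05 left 3 genes called in WT and 3 in Chd8 V986*/+ mice, a fit of the 12 WT samples of those ages called 11, and leaving out 1 mouse gave 3 to 8 and 3 to 6. From 6 to 12 months in Chd8 V986*/+ mice, a filter at 1.5 above the floor called 1 gene, Hpgds, and leaving out 1 mouse 0 to 2. Between genotypes at E14.5, 1 fit of all 48 samples called 1 gene, Siglech, and over the postnatal ages the count of 2 became 0 without a filter or at adjp below 0.05, 1 without the intensity trend, with quantile normalization or with the replicate block, and 0 to 2 without 1 mouse. At single ages 0 genes were called in each fit without 1 mouse. The causes of these changes were not tested.

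Same-numbered mice of both genotypes had correlations from −0.143 to 0.578, not all above 0.1, so the numbers were not taken as pairs. The ages differed. At E14.5 the correlations ranged from 0.012 to 0.578, and WT replicates 1, 3, 4 and 6 correlated best with their own number. At 1 month only replicate 2 did so, at 6 months only replicate 1, and at 12 months no mouse. In a limma fit with the block at E14.5, Siglech had adjp = 0.35, against 0.98 without it. A replicate block left 1 gene called over the postnatal ages, with Ctss lost (adjp = 0.106), and lost Ctss (adjp = 0.104) and Selplg (adjp = 0.109) from the WT change between 1 and 6 months. Every mouse correlated best with its own number at no age. Over all genes, the calls between genotypes varied with the setting: 1 at E14.5 became 93, 8 at 12 months became 520 and 24 at 1 month became 37 in 1 fit of all 48 samples, 16 at 6 months became 4 without the trend and 30 with the block, and 486 over the postnatal ages became 293 at adjp below 0.05. Between 1 and 6 months in WT mice, 2562 became 1683 at adjp below 0.05 and 4242 in the fit of 12 samples. Leaving out 1 mouse, the counts over all genes between genotypes ranged from 0 to 2 at E14.5, 3 to 32 at 1 month, 5 to 21 at 6 months, 2 to 251 at 12 months and 383 to 581 over the postnatal ages. Between 6 and 12 months they ranged from 0 to 4 in WT mice and from 97 to 723 in Chd8 V986*/+ mice, against 2 and 325 with all mice.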

Other observations

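Lcn2, which encodes the iron-trafficking protein lipocalin 2, was listed with monocyte and neutrophil markers. It was lower in Chd8 V986*/+ mice over the postnatal ages (−1.64, adjp = 0.032 by limma) and was not called at a single age. The largest difference was −2.85 at 12 months (SE 0.86, adjp = 0.26). Whether this call is kept without single mice or under other settings was not examined.

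From 1 to 6 months other complement genes rose in both genotypes. C4b, the classical pathway component that follows C1, rose by 1.06 in WT and 1.14 in Chd8 V986*/+ mice, and C3 by 0.90 and 1.46. Of 11 such genes 2 rose in WT mice, and 3 rose and 1 fell in Chd8 V986*/+ mice. Over all genes tested, 6.86% were called as higher in WT mice. In Chd8 V986*/+ mice 11% were called as higher and 10.8% as lower.

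Between genotypes at single ages, the largest differences of the other lists, none of them called, were Clec7a (−0.54 at 12 months) and Spp1 (−0.44 at 1 month) among genes of disease-associated microglia, C5ar1 (−0.44 at 12 months) and C3ar1 (0.29 at 6 months) among ligands, receptors and partners, and Serping1 (−0.56) and C3 (−0.51) at 1 month among other complement genes. Among markers of other cells they were Mrc1 (−0.59) and Ms4a7 (−0.54) for border macrophages and Col3a1 (−0.73) and Col1a2 (−0.67) for meningeal fibroblasts, all at 1 month. They were En2 (−2.17) for midbrain, hindbrain and spinal cord at E14.5, Ttr (1.49 at 1 month) and Aqp1 (0.87 at 12 months) for choroid plexus, S100a9 (−0.92 at 1 month) for monocytes and neutrophils, and Ms4a1 (0.68) and Cd79b (0.44) for lymphocytes at 12 months. Cldn5 (−0.53 at 1 month) and Ly6c1 (−0.47 at 12 months) led the endothelial markers. S100b (−0.32 at E14.5) and Aqp4 (0.20 at 6 months) led the astrocyte markers, Mag (0.43) and Sox10 (−0.40) the oligodendrocyte markers, Nefl (−0.51) and Slc17a7 (0.37) the neuron markers, and Hbb-b2 (−0.42) and Hbb-b1 (−0.34) the red blood cell markers, the last 3 lists at E14.5.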
